A study of Bos taurus with 12 samples.

Results

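The genes described here carry lipids and retinol or bring them into cells: APOD, APOE, FABP3, FABP4, FABP5, CD36, LPL and RBP4. They were chosen by name, and every probe set of the array whose annotation gives 1 of these 8 symbols and no other was read, which gave 12 probe sets of 24016 other than controls, of which 13292 carry exactly 1 symbol and stand for 9155 genes. APOD has 3 probe sets, FABP4 and FABP5 have 2 each and the other 5 genes have 1 each. The tissue came from 6 Holstein cows that were pregnant, dry and 3 weeks from calving. The biopsied mammary gland of each cow was cut into explants, which spent 2 h in culture with insulin, hydrocortisone and the thymidine analogue BrdU, so both tissues of every cow had the same treatment and no untreated tissue was on these arrays. Epithelium and intralobular stroma, the connective tissue between the alveoli and small ducts, were then cut out of frozen sections with a laser. Lysates of 2 slides were pooled for an epithelial capture and of 4 slides for a stromal one, and the amplified RNA went on 1 Bovine GeneChip per capture, which gave 12 arrays, 6 per tissue. By the labels, cow 1 had a lactation number of 3, cow 2 of 2 and cows 3 to 6 of 1, whereas the methods call all cows multiparous. The hormone concentrations are given in different units in the labels and in the methods and are not repeated here.

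Milk fat is made in the mammary epithelium partly from fatty acids taken out of the blood. Lipoprotein lipase (LPL) frees fatty acids from triglyceride-rich lipoproteins at the capillary wall, CD36 helps long-chain fatty acids across membranes and is also a protein of the milk fat globule membrane, and the fatty acid-binding proteins (FABP) hold fatty acids in the cytosol. FABP3 is the heart type and is abundant in the lactating gland, FABP4 is the adipocyte type and is also made by capillary endothelium and macrophages, and FABP5 is the epidermal type. Among the secreted carriers, apolipoprotein E (APOE) is a ligand of the low-density lipoprotein receptor family, apolipoprotein D (APOD) is a lipocalin that binds small hydrophobic molecules such as arachidonic acid, and retinol-binding protein 4 (RBP4), another lipocalin, carries retinol in plasma.

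All values are log2 RMA values, on which a step of 1 is a factor of 2 in signal. Differences are stroma minus epithelium of the same cow, averaged over 6 cows, with the standard error (SE) of a limma fit that held tissue and cow, and p-values were adjusted over the brightest probe sets, which were those tested. The median of an array lay between 2.95 and 3.08, so a value in that range or below it is no more than that of a typical dim probe set. Where the mean of a tissue lies there, a fold against it depends on background and is not exact. Levels of different probe sets depend on their probes and are not set against each other. On these arrays the 10 luminal epithelium markers, keratins and junction proteins among them, averaged 8.26 in epithelium and 4.95 in stroma, and all 10 were higher in epithelium past the threshold, 2 of them tested only through epithelium. The 11 fibroblast markers averaged 4.05 in epithelium and 8.95 in stroma, with 10 of 11 higher in stroma past the threshold, 4 of them tested only through stroma. POSTN had means below the array medians in both tissues and lay above the median on 1 array of each, at 3.99 in epithelium and 5.36 in stroma. The polyadenylated control RNAs added to the samples were brighter in the stroma of cows 4, 5 and 6, at 8.27 to 9.99, than on the epithelial arrays, at 2.91 to 6.05. The GAPDH control probe set at the 3' end exceeded the one at the 5' end by an uneven amount. On the log2 scale this ran from 0.93 in epithelium of cow 3 to 4.75 in stroma of cow 6. Stroma of cow 5 resembled the other arrays of its tissue least (correlation 0.72, against 0.76 to 0.88 for the other 11 arrays). The counts of genes past the threshold below were therefore also made without cows 5 and 6, a choice made after seeing the data. Their stroma had the brightest controls, at 9.99 and 9.45, and the lowest correlations, at 0.72 and 0.76. Cow 4, whose stroma was at 8.27 and 0.78, was kept in these counts.

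Of the 8 genes, 7 were among the 5222 genes tested, each represented by its brightest probe set, and RBP4 was not. Higher levels in stroma passed the threshold of an adjusted p under 0.05 for 2 genes, APOD and FABP4, against 4.48% of all genes tested. Higher levels in epithelium passed for 0 genes, against 4.62% of all genes tested. Counted by probe set, 3 of the 9 tested were higher in stroma, against 4.54% of all probe sets tested, and 0 were higher in epithelium, against 4.76%. No gene of the 7 reached an unadjusted p under 0.05 toward epithelium. The counts of genes were the same without cows 5 and 6. APOD passed the brightness filter only through its stromal arrays, since its epithelial mean lay below the lowest mean tested, 3.57, and it had to differ in order to be tested. The counts over the tested genes are therefore a description. The median difference of the 7 tested genes, APOD among them, was 1.03, against -0.20 over all 5222 genes. It is the value of LPL, whose difference did not pass, and is likewise a description.

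**Figure D1:**
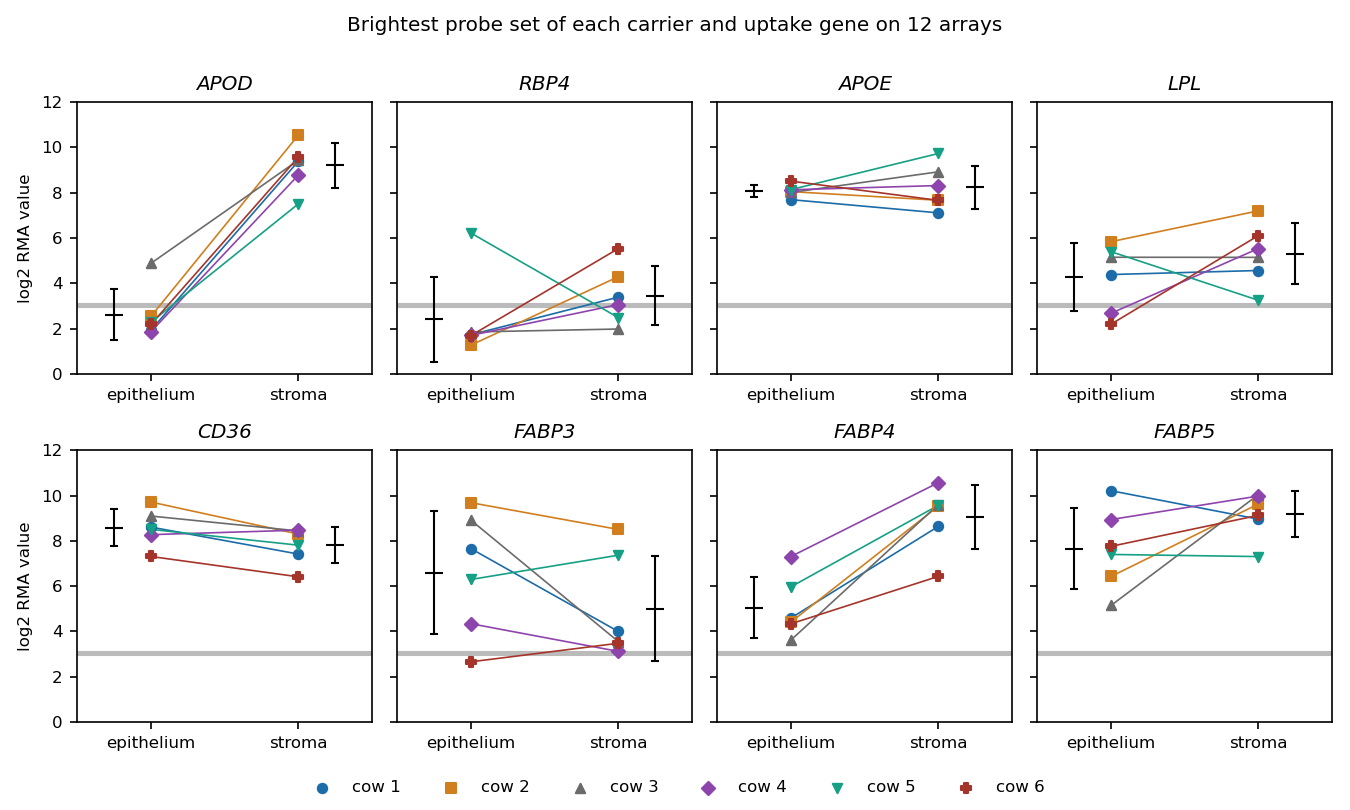
Log2 RMA value (vertical axis) of the brightest probe set of each gene in epithelium and stroma, with a line joining the captures of each of 6 cows, and the mean ± SD of each tissue beside the points. The grey band is the range of the array medians, 2.95 to 3.08. All 6 lines rise from epithelium to stroma for APOD and FABP4, and lines go both ways for the other genes.

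Apolipoprotein D showed the largest difference of the 8 genes. With its brightest probe set, APOD (NCBI gene ID 613972) was dim in epithelium and bright in stroma. The epithelial values ran from 1.86 to 4.88 with a median of 2.23, and the stromal values from 7.51 to 10.54 with a median of 9.41. Every stromal array lay above every epithelial array, which was so in this direction for 3.41% of all genes tested, and in the opposite direction for 2.97%. Epithelium of cow 3 was the highest epithelial array, the only one above the array medians, and stroma of cow 5 was the lowest stromal array. The means were 2.61 ± 1.14 (SD, n = 6) in epithelium and 9.20 ± 1.01 (SD, n = 6) in stroma, a difference of 6.59 (SE 0.52, 95% confidence interval 5.41 to 7.78, adjusted p = 0.000246). This corresponds to 96.6-fold, a value that depends on the epithelial background and is not exact. The difference within a cow ran from 4.56 in cow 3 to 8.01 in cow 2, and it was positive in 6 of 6 cows.

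The second probe set of APOD gave epithelial values of 1.96 to 3.20 with a median of 2.41 and stromal values of 5.81 to 9.79 with a median of 8.74. Again no stromal array overlapped the epithelial ones, and cow 5 again had the lowest stromal value. The difference was 5.90 (SE 0.60, adjusted p = 0.000620). Cow 3, whose epithelium was highest with the first probe set, was at 2.22 with this one, near the other cows. The first and second probe sets followed each other over the 6 stromal arrays (Pearson r = 0.97) and not over the 6 epithelial arrays (r = -0.13), where nearly all values were at the background. The dimmest of the 3 was too dim on average to be tested, and its values come from the same model fitted to all 24016 probe sets. It ran from 1.73 to 2.32 in epithelium and from 2.47 to 6.90 in stroma, higher in stroma in 6 of 6 cows with no overlap. Its difference of 2.63 (SE 0.59) did not pass (adjusted p = 0.0686). It passed in 3 of 12 alternatives: without the cow block (0.0465), with cow as a random block (0.0364) and with each array centred by its tested probe sets (0.0445). It passed with no single cow left out, at an adjusted p of 0.0598 to 0.173. Across all 24016 probe sets, 1.76% were higher in stroma and 1.62% higher in epithelium past the threshold.

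Fibroblast markers differed in the same direction as APOD. Their mean level ran from 3.11 to 5.18 over the epithelial arrays and from 8.45 to 9.29 over the stromal arrays, 4.90 ± 0.98 (SD, n = 6 cows) higher in stroma (two-sided exact permutation of the signs of the 6 differences, p = 0.0312, which is the smallest possible with 6 cows, and 0.0417 after adjustment over 8 marker lists). The 10 endothelium markers ran from 2.27 to 2.73 in epithelium and from 4.78 to 6.57 in stroma, and the 5 that were tested all passed toward stroma, 4 of them tested only because they were bright there. The mean level of the 6 Schwann cell markers differed by -0.49 ± 0.38 (SD, n = 6 cows, exact sign-flip permutation, adjusted p = 0.0714), which did not pass. By the median over these markers the difference was -0.09 (same test, adjusted p = 0.69). Of the 4 tested, S100B (-1.39, adjusted p = 0.0495) and MBP (-1.73, adjusted p = 0.0146) passed toward epithelium, against 4.62% of all genes tested. S100B was lost without any 1 cow and MBP without cow 1. The other tested markers, NGFR (0.28, adjusted p = 0.723) and SOX10 (-0.07, adjusted p = 0.935), did not pass. L1CAM and GFAP were outside the tested probe sets. The part of these cell types in the APOD difference was not tested. In a captured tissue, fewer cells of a type and less RNA per cell cannot be told apart. Genes whose brightest probe set was most like that of APOD over the 12 arrays were ADGRD1, an adhesion G protein-coupled receptor (Pearson r = 0.97), A2M, a plasma protease inhibitor (r = 0.97), and MFAP5, a microfibril protein (r = 0.96). These 12 arrays form 2 tissues, so a high r mostly records the same split between them.

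Retinol-binding protein 4 was outside the tested probe sets. Its epithelial values (NCBI gene ID 281444) ran from 1.27 to 6.22 with a median of 1.71, and its stromal values from 1.98 to 5.53 with a median of 3.22. Epithelium of cow 5 was at 6.22, and the epithelium of the other 5 cows was at 1.27 to 1.85, below the array medians. Stroma lay above the highest array median in 3 cows, 1, 2 and 6. Stroma was higher in 5 of 6 cows, with cow 5 the exception, where epithelium was 3.74 higher. The mean difference of 1.05 (SE 0.92, 95% confidence interval -1.12 to 3.21) did not pass (adjusted p = 0.607, over all 24016 probe sets). Without cow 5 it was 2.00 (adjusted p = 0.154), which did not pass either.

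The other genes of retinoid handling, from a list of plasma carriers, receptors and enzymes, comprised 20 genes with a probe set, of which 8 were tested. Of these, 2 were higher in stroma, 0 higher in epithelium and 6 did not pass, with a median difference of 0.70. Over all genes tested, 4.48% were higher in stroma and 4.62% higher in epithelium, which is the background of this and the following lists, and lists this short allow no more than a description. STRA6, the membrane receptor that takes up retinol from RBP4, ran from 1.72 to 3.98 in epithelium and from 4.95 to 6.36 in stroma without overlap, and was higher in stroma by 2.46 (SE 0.38, adjusted p = 0.00464). Its adjusted p was at most 0.0227 with any 1 of the 6 cows left out, but like APOD it was tested only through its stromal arrays, its epithelial mean of 3.04 being under the filter. TTR, transthyretin, which travels in plasma with RBP4, was higher in stroma by 2.68 (SE 0.66, adjusted p = 0.0371) in 6 of 6 cows, with overlapping tissues, 3.04 to 7.27 in epithelium and 6.87 to 9.34 in stroma. Its call was lost without cow 1, 2, 4, 5 or 6, with an adjusted p of up to 0.0964. RXRA, a nuclear receptor partner, differed by -0.15 (SE 0.49, adjusted p = 0.888), and ALDH1A1, an enzyme that makes retinoic acid, by 0.89 (SE 0.83, adjusted p = 0.564).

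Apolipoprotein E (NCBI gene ID 281004) was well above the array medians in both tissues and its difference did not pass the test. Epithelial values ran from 7.69 to 8.51 with a median of 8.09, and its stromal values from 7.11 to 9.73 with a median of 7.99. Epithelium was narrow, with an SD of 0.26 that exceeded that of only 4.41% of the tested probe sets, whereas stroma had an SD of 0.96, with cow 5 highest and cow 1 lowest. Stroma was higher in cows 3, 4 and 5 and epithelium in cows 1, 2 and 6. The difference of 0.15 (SE 0.42, adjusted p = 0.871) had a 95% confidence interval of -0.81 to 1.11, and it changed sign without cow 3 (-0.0072) or cow 5 (-0.14). The genes most like APOE were CLBA1 (r = 0.90), CSF1, the macrophage growth factor (r = 0.89), and TAF6, a general transcription factor subunit (r = 0.88). In the order of genes of the RefSeq annotation (assembly ARS-UCD2.0), APOE lies between TOMM40 and APOC4.

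Beside APOD and APOE, a list of other apolipoproteins, lipocalins and genes of sterol efflux had 21 genes with a probe set and 9 tested, of which 2 were higher in stroma, 3 higher in epithelium and 4 did not pass, with a median difference of -0.36. LCAT, which esterifies cholesterol on high-density lipoprotein, was at 2.21 to 3.87 in epithelium and 6.13 to 8.42 in stroma with no overlap. The difference of 4.33 (SE 0.38, adjusted p = 0.000346) was the largest of the list, and its fold against an epithelial mean of 2.80 is not exact. PLTP, which transfers phospholipids between lipoproteins, was higher in stroma by 2.23 (SE 0.36, adjusted p = 0.00587), and the calls of LCAT and PLTP were kept without any 1 cow. Both were tested only through their stromal arrays, like APOD. CLU, clusterin or apolipoprotein J, was higher in epithelium by 1.77 on the log2 scale (3.42-fold, adjusted p = 0.0249), in 6 of 6 cows.

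The epithelial side of that list also held both genes that move cholesterol out of lysosomes. NPC1 differed by -1.71 (SE 0.41, adjusted p = 0.0331) and NPC2 by -1.66 (SE 0.35, adjusted p = 0.0200), and for each the lowest epithelial array lay above the highest stromal array. The calls of NPC1, NPC2 and CLU were each lost without 1 of 4 cows, which were 1, 2, 4 and 6 for NPC1 and NPC2 and 1, 2, 3 and 4 for CLU, at adjusted p-values of up to 0.0969, 0.0718 and 0.0791. CLU was also not called without the cow block (adjusted p = 0.0646). PAEP, β-lactoglobulin, the lipocalin of whey, ran from 4.61 to 12.53 in epithelium and from 2.80 to 11.71 in stroma and differed by -1.67 (SE 0.46, adjusted p = 0.0539), with epithelium higher in 6 of 6 cows. PTGDS, a lipocalin that makes prostaglandin D, differed by -0.36 (SE 0.50, adjusted p = 0.704).

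**Figure D2:**
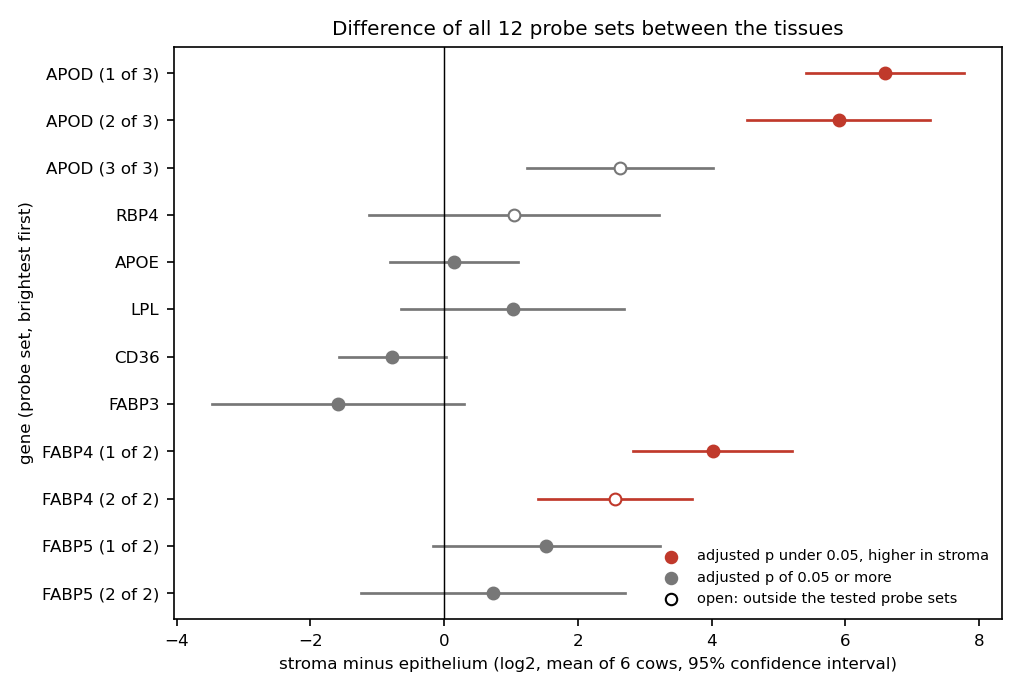
Difference between stroma and epithelium on the log2 scale (horizontal axis, mean of 6 cows with its 95% confidence interval) for all 12 probe sets of the 8 genes, with the probe sets of a gene in order of brightness. The intervals of the 3 APOD and 2 FABP4 probe sets lie above 0, and those of the other 7 include 0.

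Lipoprotein lipase (NCBI gene ID 280843) lay above the median of its array on 4 epithelial and 6 stromal arrays. In epithelium its values ran from 2.19 to 5.84 with a median of 4.77, and in stroma from 3.25 to 7.20 with a median of 5.34. In epithelium, cows 4 and 6 were below the array medians and the other 4 cows lay between 4.38 and 5.84. Stroma was higher in 4 of 6 cows, by as much as 3.92 in cow 6, cow 3 was level, and in cow 5 epithelium was higher by 2.15. The difference of 1.03 (SE 0.74, 95% confidence interval -0.64 to 2.70) did not pass (adjusted p = 0.440), and the interval holds both no difference and a 6.48-fold higher level in stroma. Without cow 5 it was 1.66 (adjusted p = 0.173) and without cow 6 it was 0.45 (adjusted p = 0.758). The genes most like LPL had lower r than those of the other members, TRAF1 at 0.82, TM2D2 at 0.79 and DUS3L at 0.77.

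Of the other genes of lipoprotein lipolysis and lipoprotein receptors, 13 had a probe set and 7 were tested, of which 0 passed in either direction, with a median difference of -0.15. ANGPTL4, a secreted inhibitor of LPL, had values of 8.39 to 10.65 in epithelium and 7.59 to 9.32 in stroma, a difference of -1.02 (SE 0.42, adjusted p = 0.179). SORL1, a sorting receptor of the low-density lipoprotein receptor family, differed by -2.06 (SE 0.87, adjusted p = 0.195), with epithelium higher in 5 of 6 cows. The lowest p-values of this list lay toward stroma, for SCARB1, a receptor for high-density lipoprotein, at 1.58 (SE 0.48, adjusted p = 0.0795), and HSPG2, the proteoglycan perlecan, at 1.22 (SE 0.43, adjusted p = 0.120), both named after their values were seen.

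CD36 (NCBI gene ID 281052) was above the array medians on all 12 arrays, and its difference did not pass the test. Its epithelial values ran from 7.31 to 9.72 with a median of 8.56, and its stromal values from 6.41 to 8.47 with a median of 8.06. Cow 6 was lowest in both tissues, and the tissues overlapped. Epithelium was higher in 5 of 6 cows, by 0.66 in cow 3 to 1.41 in cow 2 on the log2 scale, and in cow 4 stroma was higher by 0.20. The difference was -0.78 (SE 0.35, adjusted p = 0.225, unadjusted p = 0.0553), and its 95% confidence interval of -1.58 to 0.02 reached just past 0. The spread of this difference between cows was small, an SD of 0.56 that exceeded that of 9.82% of the tested probe sets. PARP1, a DNA repair enzyme, was the gene most like it (r = 0.93), followed by SLC39A8, a zinc and manganese transporter (r = 0.86), and CLK2, a kinase of splicing factors (r = 0.86).

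**Figure D3:**
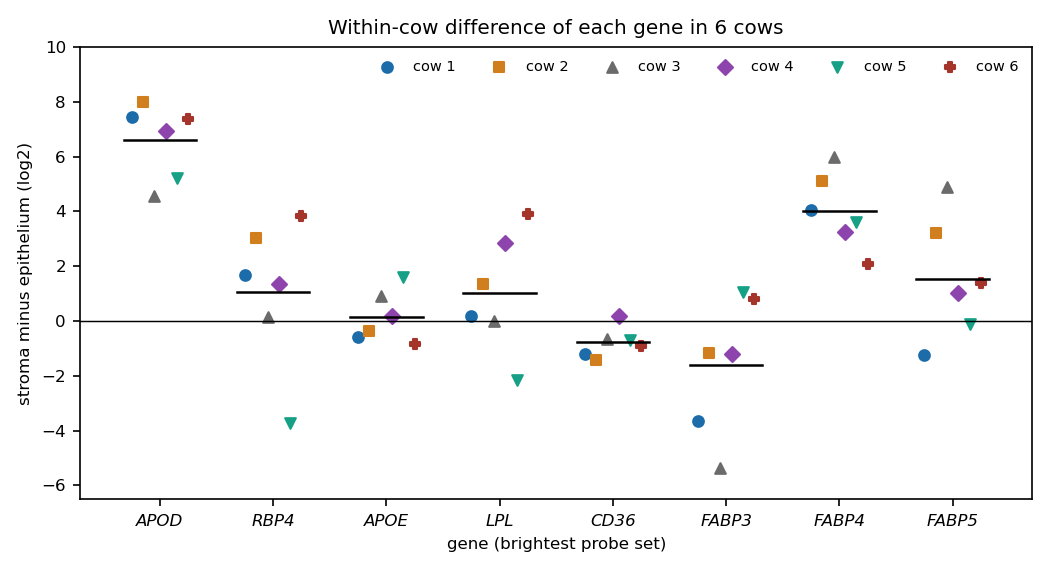
Difference between stroma and epithelium within each of 6 cows on the log2 scale (vertical axis) for the brightest probe set of each gene, with a bar at the mean. APOD and FABP4 are above 0 in all 6 cows, CD36 is below 0 in 5 of 6, and cow 5 is the lowest for RBP4 and LPL and the highest for APOE and FABP3.

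Fatty acid-binding protein 4 (NCBI gene ID 281759) was the other gene that passed. The epithelial values of its brightest probe set ran from 3.62 to 7.31 with a median of 4.50, and its stromal values from 6.43 to 10.57 with a median of 9.55. All 12 arrays lay above the array medians, with epithelium of cow 3, which gave the largest difference, the nearest to them at 3.62. The tissues overlapped, since stroma of cow 6, at 6.43, was below epithelium of cow 4, at 7.31, but within each cow stroma was higher, by 2.09 in cow 6 to 5.98 in cow 3. Cow 4 was highest in both tissues. The means were 5.04 ± 1.35 (SD, n = 6) in epithelium and 9.06 ± 1.43 (SD, n = 6) in stroma, a difference of 4.02 (SE 0.52, 95% confidence interval 2.83 to 5.20) or 16.2-fold (adjusted p = 0.00204). The call was kept without any 1 cow, with an adjusted p of at most 0.0116.

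The second probe set of FABP4 was outside the tested ones, at 1.35 to 2.92 in epithelium and 3.29 to 6.55 in stroma. All epithelial arrays were below the array medians and all stromal arrays above them. The difference was 2.55 (SE 0.49, adjusted p = 0.0392 over all 24016 probe sets) with 6 of 6 cows higher in stroma, and it no longer passed without cow 1, 2, 3, 4 or 5, with an adjusted p of 0.0645 to 0.112. The FABP4 probe sets ordered the cows differently. Stroma of cow 6 was the lowest of the stromal arrays with the first probe set and the highest with the second, and r between them over the 6 stromal arrays was -0.65.

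Markers of adipocytes, endothelium and macrophages, other cells that make FABP4, were read on the same arrays. Per the methods, the operators aimed to leave out vessels and visible immune cells when they captured stroma. Of the 10 adipocyte markers with a probe set, 6 had means below the array medians in both tissues. Among them were the hormones ADIPOQ, LEP and RETN and the lipid droplet proteins CIDEC and CIDEA. ADIPOQ and RETN each lay above the array median on 1 stromal array, at 4.31 and 3.17. The mean level of the 10 adipocyte markers ran from 2.26 to 2.75 in epithelium and from 2.64 to 3.16 in stroma. The difference was 0.39 ± 0.26 (SD, n = 6 cows), positive in 6 of 6 cows (exact sign-flip permutation p = 0.0312, adjusted p = 0.0417). By the median over the markers it was 0.18 (adjusted p = 0.167). Of 3 adipocyte markers tested, 1 passed, AOC3, higher in stroma by 1.57 (adjusted p = 0.0335), and it was lost without cow 1, 2, 3, 4 or 6, at up to 0.103. Like APOD, AOC3 was tested only through its stromal arrays, its epithelial mean being 3.00. Endothelium markers were 3.18 ± 0.90 (SD, n = 6) higher in stroma, with CDH5 and FLT1 higher by 5.00 and 5.56. Macrophage markers ran from 3.67 to 4.09 in epithelium and from 4.64 to 5.41 in stroma, 1.05 ± 0.33 (SD, n = 6) higher in stroma, and 1 of 6 tested passed, MSR1, at 3.19 (adjusted p = 0.0483, lost without any 1 of cows 1 to 5, at up to 0.132). MSR1 too was tested only through its stromal arrays, with an epithelial mean of 3.40. The part of these cell types in the FABP4 difference was not tested. The genes most like FABP4 over the 12 arrays were EHD2, a protein of the caveolar neck (r = 0.92), the chemokine CCL2 (r = 0.92) and the histone deacetylase HDAC7 (r = 0.92).

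Fatty acid-binding protein 5 (NCBI gene ID 281760) was above the array medians on all 12 arrays by its brightest probe set, whose values in epithelium ran from 5.14 to 10.22 with a median of 7.58, and its stromal values from 7.31 to 10.04 with a median of 9.38. Cow 3 was the lowest in epithelium and the highest in stroma, a difference of 4.90, whereas in cow 1 epithelium was higher by 1.26 and in cow 5 the tissues were within 0.094. The epithelial SD of 1.79 exceeded that of 96.7% of the tested probe sets, against 49.4% for the stromal SD of 1.01, but with the second probe set the SDs were alike, 1.77 in epithelium and 1.82 in stroma. The difference of 1.53 (SE 0.75, 95% confidence interval -0.17 to 3.23) did not pass (adjusted p = 0.259), with stroma higher in 4 of 6 cows, and it was 0.85 without cow 3 (adjusted p = 0.482). A second probe set followed it over the 12 arrays (r = 0.85) and differed by 0.73 (SE 0.87, adjusted p = 0.657), also higher in stroma in 4 of 6 cows. PAQR3 (r = 0.87), CSPP1, a centrosome protein (r = 0.86), and MYL11, a myosin light chain (r = 0.86), were most like FABP5.

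Fatty acid-binding protein 3 (NCBI gene ID 281758) had a larger spread between cows than nearly all probe sets tested. Its epithelial values ran from 2.66 to 9.69 with a median of 6.98, and its stromal values from 3.12 to 8.51 with a median of 3.77. Cow 2 was highest in both tissues, and epithelium of cow 6 was below the array medians. The SD of 2.71 in epithelium exceeded that of 99.8% of the tested probe sets and the SD of 2.32 in stroma that of 97.6%. Epithelium was higher in cows 1 to 4, by 1.18 in cow 2 to 5.36 in cow 3, and stroma was higher in cow 5 by 1.07 and in cow 6 by 0.82. The difference of -1.59 (SE 0.83, 95% confidence interval -3.48 to 0.30) did not pass (adjusted p = 0.289). It was -0.83 without cow 3 (adjusted p = 0.535) and -2.86 without cows 5 and 6 (adjusted p = 0.0916). Cows 5 and 6 were the ones with higher stroma, so leaving them out had to move the difference toward epithelium. Most like FABP3 were PLCL2 (r = 0.93), GLYCAM1, a mucin of milk (r = 0.92), and NUPR1, a stress-induced nuclear protein (r = 0.91).

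The 3 binding proteins were compared with each other by the difference between the tissues, cow by cow, with the brightest probe set of each, a comparison chosen after their values were seen. The size of a difference varied with the probe set, at 4.02 and 2.55 for the 2 probe sets of FABP4, so the comparison is a description. The difference of FABP4 exceeded that of FABP3 by 5.61 ± 3.67 (SD, n = 6), in 6 of 6 cows (exact sign-flip permutation, two-sided p = 0.0312, adjusted p = 0.0469 over 3 pairs). It exceeded that of FABP5 by 2.49 ± 1.72 in 6 of 6 cows (exact p = 0.0312, adjusted p = 0.0469). The difference of FABP5 exceeded that of FABP3 by 3.12 ± 3.97, in 5 of 6 cows (exact p = 0.0938, adjusted p = 0.0938), which did not pass. Neither comparison with FABP4 passed when its second probe set was used: the difference of FABP4 then exceeded that of FABP3 by 4.14 ± 2.41 in 6 of 6 cows (exact p = 0.0312, adjusted p = 0.0938) and that of FABP5 by a mean of 1.02 ± 2.36 in 4 of 6 cows (exact p = 0.344, adjusted p = 0.344). In the RefSeq gene order (assembly ARS-UCD2.0), FABP5 and FABP4 lie in 1 cluster with PMP2 and FABP9 between them, which have no probe set with 1 symbol, and FABP3 lies elsewhere, next to SERINC2 and ZCCHC17.

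Among other genes of fatty acid uptake, binding and activation, 21 had a probe set and 11 were tested, of which 1 was higher in stroma, 3 higher in epithelium and 7 did not pass, with a median difference of -0.89. Of the acyl-CoA synthetases, which activate fatty acids after uptake, ACSL1 and ACSL5 passed in opposite directions, ACSL3 differed by -0.89 (adjusted p = 0.396) and ACSL6 was outside the tested probe sets. ACSL1 had a lowest epithelial value of 7.81 and a highest stromal value of 7.77, so that the tissues did not overlap, and was higher in epithelium by 2.64 on the log2 scale (6.22-fold, adjusted p = 0.0166, lost without cow 4, at 0.0552). ACSL5 ran from 4.59 to 5.81 in epithelium and from 5.95 to 9.88 in stroma without overlap and was higher in stroma by 2.21 (SE 0.54, adjusted p = 0.0361, lost without cow 1, 2, 3, 5 or 6, at up to 0.0923).

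Both proteins that coat lipid droplets and passed were higher in epithelium. PLIN2, adipophilin, differed by -1.80 (SE 0.41, adjusted p = 0.0266), with epithelium higher in 6 of 6 cows, and PLIN3 by -1.96 (SE 0.46, adjusted p = 0.0318), with epithelium higher in 5 of 6. These calls were lost without 1 of 5 cows each, 1, 2, 3, 4 and 6 for PLIN2 and 1, 2, 4, 5 and 6 for PLIN3, at adjusted p-values of up to 0.0891 and 0.101, and without the cow block (0.142 and 0.0773). SCP2, a sterol carrier, differed by -1.11 (SE 0.45, adjusted p = 0.177), and ACBD3, an acyl-CoA-binding protein of the Golgi, by -0.69 (SE 0.53, adjusted p = 0.475).

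Over the 4 lists together, 75 of 110 genes had a probe set and 35 were tested, of which 5 were higher in stroma, 6 higher in epithelium and 24 did not pass, with a median difference of -0.15 against -0.20 over all tested genes, of which 4.48% were higher in stroma and 4.62% in epithelium. Of the 5 higher in stroma, 3 (STRA6, LCAT and PLTP) were tested only through their stromal arrays. The other 40 were outside the tested probe sets, and 29 of the 75 had means below the array medians in both tissues. Without cows 5 and 6, 3 were higher in stroma and 2 in epithelium. Leaving out cow 1, 2, 5 or 6 alone left 3 higher in stroma, leaving out cow 1 or 2 left 1 higher in epithelium, cow 6 left 2 and cow 4 left 0, and without the cow block 3 were higher in epithelium.

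**Figure D4:**
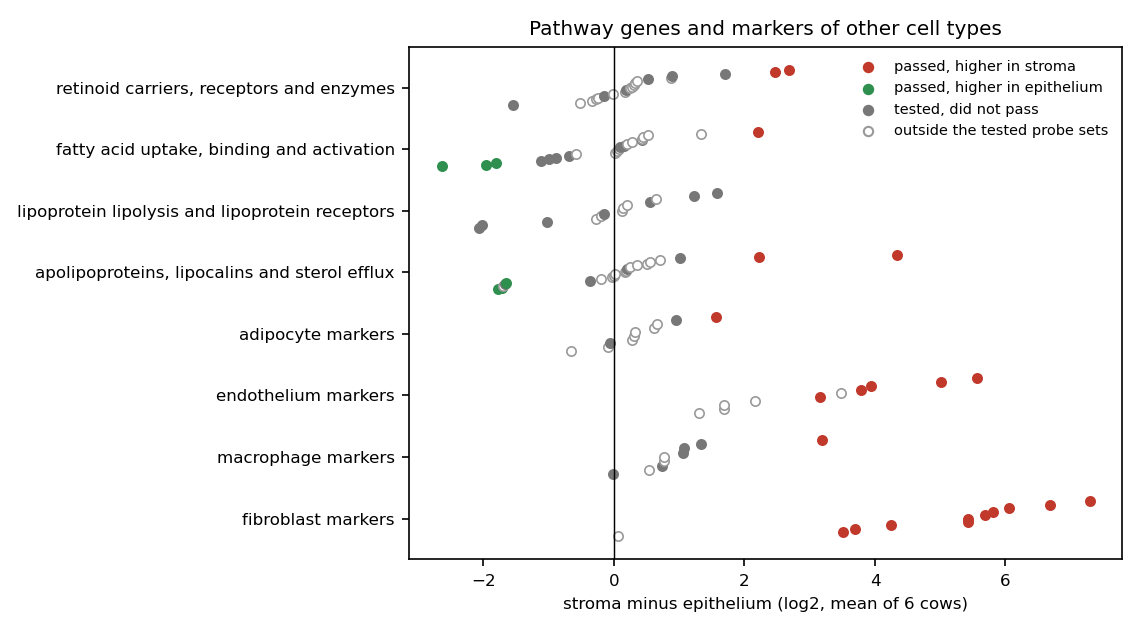
Difference between stroma and epithelium on the log2 scale (horizontal axis, mean of 6 cows) for each gene of 4 pathway lists and of 4 marker lists of other cell types, 1 point per gene by its brightest probe set. Endothelium and fibroblast markers that were tested all lie toward stroma, AOC3 at 1.57 is the adipocyte marker farthest toward stroma, and the 35 tested pathway genes lie on both sides, 5 passing toward stroma and 6 toward epithelium.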

How the data were processed

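The values are log2 RMA values (robust multiarray analysis with quantile normalization), which the authors computed over 24 arrays with BioConductor 2.0 and deposited for 12. Detection calls were not used here. A genome build is not given in the sources used here, so no coordinates are printed, and the RefSeq annotation of ARS-UCD2.0 served only for gene names and gene order. Of the 24128 probe sets 112 controls were left out. Genes were named from the platform annotation: 13292 probe sets have 1 symbol, 86 have several and 10638 have none. Among the single-symbol probe sets, 13263 had a gene ID of the RefSeq annotation.

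The study filtered probe sets by detection calls. Here an equal number, the 10031 with the highest mean (at least 3.57), was fitted with limma 3.58.1 in R 4.3.3, with tissue and cow as terms and Benjamini-Hochberg adjustment, at a threshold of 0.05. The study's own model had tissue alone. Probe sets outside were read from a fit of all 24016. The labels and the design give both captures of a cow the same number, which sets the pairs, and deviations of paired captures from their tissue means correlated at 0.03 to 0.20. Marker levels and pairs of genes were compared by exact permutation of the signs of 6 within-cow differences. The fit was tested on simulated data.

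The members and gene lists were chosen with earlier results of these data known. Every probe set of the 8 genes is described, by its order of brightness. Other genes named are, for each tested gene, the 3 with the highest Pearson r over 12 arrays and, of each pathway list, up to 5 passing genes with the largest differences and up to 2 others with the highest mean. Markers and neighbouring genes are named besides. The number of arrays limits the precision.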

Additional observations from a re-analysis of the deposited data

Results flagged for a closer look

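In 24 groups of 6 arrays, 1 per probe set and tissue, the highest or lowest array stood apart from the others by Dixon's test in 2, and chance alone gives about 1 in 20. APOD in epithelium of cow 3 was at 4.88 on the log2 scale with its brightest probe set, while the other 5 epithelial arrays lay between 1.86 and 2.54. The second APOD probe set was at 2.22 on the same array and did not stand apart. RBP4 in epithelium of cow 5 was at 6.22, while the other 5 epithelial arrays lay between 1.27 and 1.85, and no second probe set of RBP4 was on the array.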

How the results depend on the processing

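The 8 genes gave 122 values under 16 alternatives, of which 120 kept their direction and side of the threshold. The 2 exceptions were APOE without cow 3 or cow 5, and with each cow left out its difference ran from -0.143 to 0.346. The count of the 8 genes higher in stroma was 2 under every alternative except probe sets bright on at least 8 arrays, which left APOD untested and gave 1. Taking out the replicate block left these counts at 2 and 0 (APOD adjusted p = 6.6e-06, FABP4 0.00238). It changed the number of pathway genes higher in epithelium from 6 to 3, the calls of CLU, PLIN2 and PLIN3 being lost. The number of pathway genes higher in stroma, 5 in the report, was 3 with no filter, 2 among the brightest 5000 probe sets and 3 without cows 5 and 6, where 2 were higher in epithelium. With each cow left out it ran from 3 to 5, and the number higher in epithelium from 0 to 5. Centring the arrays by the medians of their tested probe sets moved the median difference of the tested probe sets from -0.18 to -0.0096 and the epithelial share of calls from 51.2% to 41.2%, and the share was 40.5% without cows 5 and 6. By the median over markers, the differences were -3.72 for luminal epithelium, 5.67 for fibroblasts, 3.77 for endothelium, 1.33 for macrophages and 1.86 for pericytes and smooth muscle, each at an adjusted p of 0.05, and 0.18 for adipocytes (0.167). By the mean over markers, myoepithelium differed by 0.20 (adjusted p = 0.656) and ran from -0.0677 (without cow 4) to 0.345 with each cow left out. By the median it differed by 0.40 (exact sign-flip permutation, adjusted p = 0.429). Schwann cell markers differed by -0.49 by the mean (adjusted p = 0.0714) and by -0.09 by the median (adjusted p = 0.69). With 5 cows the exact test cannot go below 0.0625. Probe sets that a filter removed have no value under it. With the second FABP4 probe set, chosen after seeing the data, the FABP4 and FABP3 pair gave 4.14 (adjusted p = 0.0938) and the FABP5 and FABP4 pair -1.02 (0.344).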

Other observations

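Pairs of the 8 genes were set against each other over the 12 arrays, as a description without a test, since arrays of 2 tissues are not independent points. APOD and FABP4, both higher in stroma, gave the highest Pearson r at 0.75. CD36 and FABP3 followed at 0.67. FABP5 gave r = 0.58 with FABP4 and r = -0.51 with FABP3, and the value of APOE farthest from 0 was -0.41, with LPL.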
